A study of Rattus norvegicus with 47 samples.

Results

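The genes described are those of GABA synthesis, transport and breakdown: Gad1, Gad2, Slc32a1, Slc6a11, Abat and Aldh5a1. They were taken by gene symbol from a list, not by their values, and all 6 were found among the 15319 genes counted in each brain region. The study asked how inhaled PCB52 (2,2′,5,5′-tetrachlorobiphenyl, a lower-chlorinated polychlorinated biphenyl present in air) affects transcripts in the adolescent rat brain. Punches of 2 brain regions, striatum and cerebellum, came from male and female Sprague-Dawley rats, with no transgene or mutant allele named. The rats arrived at 28 days of age and were assigned to a treatment at 39 days (males) or 42 days (females). The sexes thus also differed in age at assignment. PCB52 animals inhaled PCB52 in a nose-only system in daily sessions of 4 h for 28 days, and sham animals were the unexposed controls. Counts were used from 44 libraries: 4 sham and 6 PCB52 males and 6 sham and 6 PCB52 females for the striatum, and 5, 5, 6 and 6 for the cerebellum. The libraries came from 23 animals, 21 of which gave both regions.

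GABA is the main fast inhibitory transmitter of the forebrain and cerebellum. Glutamate decarboxylase makes it from glutamate, and the gene pair Gad1 and Gad2 encodes its forms GAD67, which is spread through the cell, and GAD65, which is enriched at terminals. Slc32a1 encodes VGAT, which loads GABA and glycine into synaptic vesicles, and Slc6a11 encodes GAT-3, a plasma membrane GABA transporter found largely on astrocytes. Abat encodes GABA transaminase, which turns GABA into succinic semialdehyde in mitochondria, and Aldh5a1 encodes the dehydrogenase that oxidises that product to succinate. Striatal projection neurons and cerebellar Purkinje, basket, stellate and Golgi cells are all GABAergic.

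Promoter windows were compared because Gad1 and Gad2 varied together between cerebellar libraries (r = 0.90). The r of Slc32a1 was 0.50 with Gad1 and 0.18 with Gad2. Covariation was common there, since 21.4% and 14.9% of 8941 genes ran against ribosomal protein transcripts as closely as Gad1 and Gad2. Any part of promoter sequence in it was not tested. RefSeq promoter sequences (build GRCr8, whereas reads were aligned to rn6) matched 5 of the 6 genes, and Abat had no match. The RefSeq window of Gad1 is placed on a start inside the annotated gene, so only its first 58 bases, which lie before the gene's first annotated base, are shown, with the 250 bases before the Gad2 and Slc32a1 starts, 5′ to 3′, with motif matches in capitals.
Gad1, chr3:75777202-75777259, + strand: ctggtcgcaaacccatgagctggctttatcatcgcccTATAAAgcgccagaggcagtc
Gad2, chr17:89671468-89671717, + strand: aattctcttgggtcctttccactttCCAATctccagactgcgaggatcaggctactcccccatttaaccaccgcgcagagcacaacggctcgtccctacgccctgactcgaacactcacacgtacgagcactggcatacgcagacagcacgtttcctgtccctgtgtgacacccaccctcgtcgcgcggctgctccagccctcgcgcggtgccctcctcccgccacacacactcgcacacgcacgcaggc
Slc32a1, chr3:167686995-167687244, + strand: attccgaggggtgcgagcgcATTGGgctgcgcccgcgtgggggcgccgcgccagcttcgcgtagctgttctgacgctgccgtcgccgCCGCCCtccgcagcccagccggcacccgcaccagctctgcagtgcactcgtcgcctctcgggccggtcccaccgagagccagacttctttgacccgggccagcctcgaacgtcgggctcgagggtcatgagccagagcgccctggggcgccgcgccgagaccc
The motifs searched on both strands of the 250 bases were the TATA box (TATAAA), the CAAT box (CCAAT), the GC box (GGGCGG) and a homeodomain core (TAATTA). Capitals mark TATAAA in Gad1, CCAAT in Gad2, and ATTGG and CCGCCC, the reverse-strand forms of CCAAT and GGGCGG, in Slc32a1. Gad1 also held 1 GGGCGG match outside the bases shown, past the gene's first annotated base. Slc6a11 held 4 GGGCGG matches and Aldh5a1 held no match to any of the motifs. Of 33469 promoters of the same length, 12.9% held TATAAA, 34% CCAAT, 30.5% GGGCGG and 4.86% TAATTA, which none of the 5 genes held. These matches describe the letters of the windows only.

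Total counts ran from 5684508 to 8914523 in the striatum and from 6524400 to 15865054 in the cerebellum. The tissue labels matched the defining markers: 10 of 10 striatal projection neuron genes were called higher in the striatum and 7 of 7 granule cell genes and 8 of 8 Purkinje genes higher in the cerebellum (edgeR, sham libraries). In 5 sham libraries (striatum male 3, cerebellum males 9 and 11 and cerebellum females 8 and 10) both the female transcript Xist and the male transcript Eif2s3y exceeded 3 CPM (counts scaled to library size). In 6 libraries, 5 of them striatal, transcripts of neighbouring brain tissue stood out, and 4 cerebellar PCB52 libraries (males 15 and 23, females 16 and 20) had a mean log2 CPM of ribosomal protein transcripts above 9. Striatum PCB52 female 22, not among those 6, also carried cerebellar transcripts, with mean log2 CPM of 5.91 for granule cell and 6.57 for Purkinje markers. The 6 were named one by one, with no fixed limit on a marker list. For cortical neuron markers, striatum sham female 6, left out of the set, had a mean of 4.03. Striatum PCB52 female 24, in the set, had 3.84.

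Levels are given as CPM on 1 TMM scale over all 44 libraries, with the mean ± SD. Transcript lengths were not used, so levels are compared between groups for each gene and not between genes. In sham animals, 5 of the 6 GABA genes had higher levels in the striatum than in the cerebellum, and Gad1 was the exception. All of the other genes, from synthesis to breakdown, differed by 1.28-fold to 3.27-fold. In bulk tissue, a difference in the number of cells of a type and a difference in RNA per cell cannot be told apart.

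Gad1 transcripts stood at 445.8 ± 35.7 CPM in the sham striatum (n = 10, lowest 395.7, median 448.3, highest 509.4) and at 460.3 ± 38.8 CPM in the sham cerebellum (n = 11, lowest 367.5, median 472.2, highest 520.9). The ranges overlapped almost entirely. The log2 fold change, striatum over cerebellum, was -0.05 ± 0.10 (SE, edgeR quasi-likelihood test, adjusted p = 0.700), with an approximate 95% interval of 0.84-fold to 1.12-fold. Among the 21 animals with both regions, Gad1 was higher in the striatum in 11 and lower in 10.

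Gad2 transcripts stood at 215.5 ± 48.2 CPM in the sham striatum (lowest 134.2, median 210.3, highest 290.4) and at 68.2 ± 12.96 CPM in the sham cerebellum (lowest 52.8, median 67.6, highest 92.8). The groups did not overlap. Gad2 was 3.10-fold higher in the striatum (interval 2.49 to 3.86, edgeR adjusted p = 9.99e-12), and 21 of 21 animals showed that direction.

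Slc32a1, the vesicular transporter, stood at 420.1 ± 35.8 CPM in the sham striatum (lowest 371.7, median 411.7, highest 472.8) against 231.3 ± 21.4 CPM in the sham cerebellum (lowest 194.2, median 236.5, highest 263.7). The ranges were apart, and the gene was 1.81-fold higher in the striatum (interval 1.65 to 1.99, edgeR adjusted p = 3.19e-14). All 21 animals had the higher value in the striatum.

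Slc6a11, the glial GABA transporter, was the most variable of the 6. It stood at 86.8 ± 32.6 CPM in the sham striatum (lowest 42.7, median 78.97, highest 151.5) and at 27.2 ± 12.4 CPM in the sham cerebellum (lowest 15.5, median 26.0, highest 60.6). The highest cerebellar library, sham female 12, exceeded the lowest striatal one, sham male 9. The gene was 3.27-fold higher in the striatum (interval 2.36 to 4.54, edgeR adjusted p = 5.42e-08), in 21 of 21 animals.

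Of the breakdown enzymes, Abat stood at 219.2 ± 42.6 CPM in the sham striatum (lowest 136.6, median 237.3, highest 255.7) and at 149.7 ± 15.96 CPM in the sham cerebellum (lowest 128.8, median 146.6, highest 182.2). Aldh5a1 stood at 185.4 ± 30.7 CPM (lowest 120.7, median 187.5, highest 224.3) and 144.7 ± 17.2 CPM (lowest 120.3, median 149.3, highest 179.2). For both genes the ranges overlapped at the low end of the striatum. Abat was 1.47-fold higher in the striatum (interval 1.26 to 1.70, edgeR adjusted p = 3.04e-05) and Aldh5a1 1.28-fold (interval 1.10 to 1.49, adjusted p = 0.00476), each in 20 of 21 animals.

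These 5 of 6 calls stand against a background in which 8690 of 12446 genes tested (69.8%) differed between the regions, and 34.3% of those tested were higher and 35.5% lower in the striatum; at an unadjusted p under 0.05 it was 71.8%. The median log2 fold change was 0.70 over the 6 genes and -0.03 over all genes. Fitting the animal as a block in the animals with both regions called the same number of the 6 genes, with 8433 genes called in all. Without the 5 libraries holding transcripts of both sexes, the log2 fold changes were 1.62 for Gad2, 0.86 for Slc32a1, 1.62 for Slc6a11, 0.53 for Abat and 0.35 for Aldh5a1, with edgeR adjusted p of at most 0.0231. Without the 6 libraries holding neighbouring tissue they were 1.76, 0.85, 1.73, 0.65 and 0.45, with adjusted p of at most 0.000727. Striatal levels of microglial (6 of 6) and oligodendrocyte (6 of 6) markers were also called higher, while of the 8 astrocyte markers 3 were called higher and 1 lower. The part of these cell types in the levels of Slc6a11, Abat and Aldh5a1 was not tested.

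**Figure D1:**
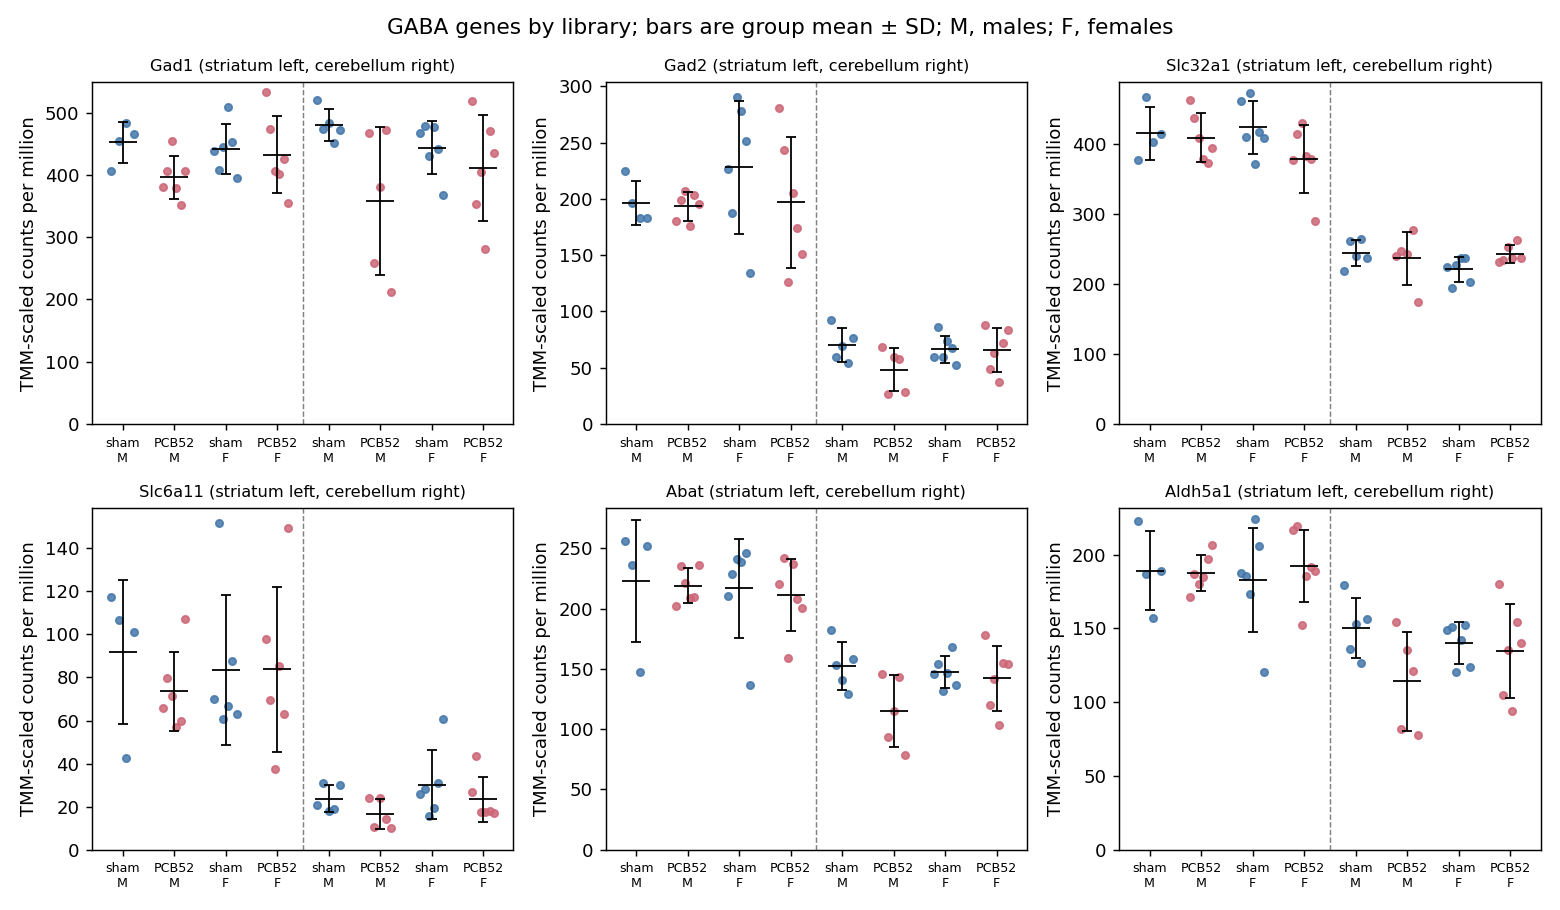
TMM-scaled CPM of the 6 GABA genes (vertical axes, from 0) in each of the 44 libraries (points), by region, treatment and sex (horizontal axes); black bars are group means ± SD. Gad2 was 3.10-fold and Slc32a1 1.81-fold higher in the sham striatum, while Gad1 stood at 445.8 and 460.3 CPM in the sham striatum and cerebellum; the 2 lowest Gad1 values, 258.8 and 212.6 CPM, were both in cerebellar PCB52 males.

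The difference between the decarboxylase genes was also read within each library, where scaling between libraries cancels. The count ratio of Gad1 to Gad2 is a ratio of reads, not of transcripts, because gene length was not corrected for. Its log2 value averaged 1.09 ± 0.26 (SD) over the 22 striatal libraries and 2.78 ± 0.21 over the 22 cerebellar ones. On the linear scale, Gad1 had 1.53 to 3.22 times as many counts as Gad2 in the striatum and 5.20 to 9.59 times as many in the cerebellum, with no overlap. In the 10 sham animals with both regions, the log2 ratio was lower in the striatum by a mean difference of -1.69 ± 0.33, in 10 of 10 animals (exact two-sided sign-flip permutation test, p = 0.00195, the smallest that 10 pairs can give). That is a 3.23-fold shift, and the direction held in 21 of 21 animals when PCB52 animals were added.

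**Figure D2:**
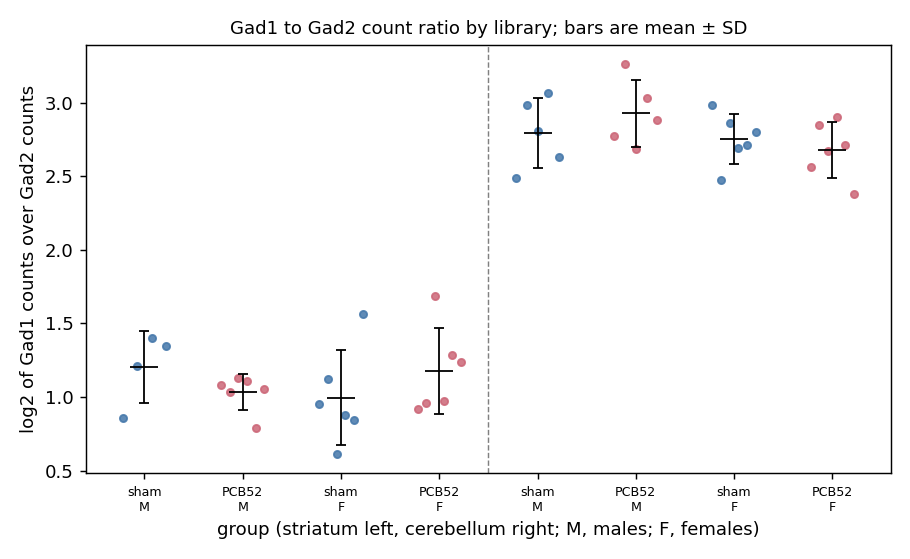
Log2 of Gad1 counts over Gad2 counts (vertical axis) in each library (points) by group (horizontal axis), with group means ± SD as black bars. Striatal libraries lay between 0.61 and 1.69 and cerebellar libraries between 2.38 and 3.26.

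PCB52 left this ratio without a detected change. The mean log2 ratio was 1.03 ± 0.12 in PCB52 and 1.20 ± 0.24 in sham striatal males, and 1.18 ± 0.29 and 1.00 ± 0.32 in striatal females. In the cerebellum it was 2.93 ± 0.23 in PCB52 and 2.79 ± 0.24 in sham males, and 2.68 ± 0.19 and 2.75 ± 0.17 in females. The 4 differences were -0.17, 0.18, 0.13 and -0.07, with exact two-sided permutation p = 0.171, 0.325, 0.397 and 0.489, and an adjusted p of 0.489 for each over the 4 tests.

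No GABA gene passed the edgeR test in any comparison of PCB52 with sham. That applied to striatal males and females and to cerebellar males and females, where 0 of 6 genes and 0% of all genes tested (12142 in the striatum, 11690 in the cerebellum) were called at an adjusted p under 0.05. At an unadjusted p under 0.05, 109 genes (0.898%) and 1633 genes (13.4%) were counted in striatal males and females, and 1673 (14.3%) and 369 (3.16%) in cerebellar males and females. limma with quality weights called 0 genes in each of the 4, while DESeq2 called 1, 23, 1 and 9 genes, none of the 6. In simulated data the edgeR fit recovered 63.5% of 2-fold changes in cerebellar males and 86.4% in striatal females. Each gene was simulated independently, without variation shared by the genes of a library, and smaller changes were not simulated. These rates therefore do not give the recovery of changes of the size estimated below.

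The estimates lay farthest below 0 in cerebellar males, for the enzymes and for Slc6a11 but not for Slc32a1, and none passed the test. Gad1 stood at 467.0, 258.8, 380.9, 471.7 and 212.6 CPM in PCB52 males 13, 15, 19, 21 and 23, and at 520.9, 473.0, 484.0, 451.8 and 472.2 CPM in sham males 1, 3, 7, 9 and 11. Males 15 and 23 stood far below every sham male and male 19 less far below them, while males 13 and 21 were within the sham range. The log2 fold change was -0.43 ± 0.19 (SE), an approximate 95% interval of 0.57-fold to 0.96-fold, with an edgeR adjusted p of 0.313.

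Gad2 had the same pair of low libraries. It stood at 68.3, 27.0, 59.3, 57.6 and 28.9 CPM in the PCB52 males and at 92.8, 60.0, 69.1, 54.0 and 76.2 CPM in the sham males, in the same order of animals. The log2 fold change was -0.55 ± 0.26 (edgeR adjusted p = 0.313).

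Abat stood at 145.5, 93.6, 115.1, 143.5 and 78.3 CPM in the PCB52 males and at 182.2, 152.9, 141.1, 128.8 and 158.2 CPM in the sham males. Aldh5a1 stood at 154.7, 82.1, 135.7, 121.5 and 77.8 CPM, against 179.2, 136.4, 153.3, 126.6 and 156.7 CPM. Again males 15 and 23 were lowest. Male 19 was also below every sham male for Abat and male 21 for Aldh5a1, and the groups overlapped. The log2 fold changes were -0.42 ± 0.17 for Abat and -0.40 ± 0.19 for Aldh5a1, both with an edgeR adjusted p of 0.313.

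The vesicular transporter did not share that pattern. Slc32a1 stood at 240.0, 247.5, 243.2, 277.2 and 173.8 CPM in the PCB52 males and at 218.7, 261.5, 240.4, 263.7 and 236.5 CPM in the sham males. Male 15 lay within the sham range and only male 23 below it, with a log2 fold change of -0.06 ± 0.10 (edgeR adjusted p = 0.695). Slc6a11 stood at 24.0, 10.5, 24.3, 14.5 and 9.95 CPM against 20.7, 31.1, 18.1, 18.8 and 30.0 CPM, with a log2 fold change of -0.52 ± 0.35 (adjusted p = 0.339). Males 15 and 23 were again the lowest, male 21 was also below every sham male, and the groups overlapped.

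Over the 6 genes the median log2 fold change in cerebellar males was -0.42, against 0.01 over all genes, and all 6 were lower. Unadjusted p was under 0.05 for 4 of the 6, the 2 decarboxylase genes and the 2 breakdown genes, against 14.3% of all genes. These 4 varied together over the cerebellar libraries (r from 0.90 to 0.94 between them), so they do not count as 4 independent results. Males 15 and 23 were among the libraries with high ribosomal protein transcripts, and males 19 and 21 were not. Without the 4 libraries above 9 on that measure, the log2 fold changes were -0.14 for Gad1, -0.20 for Gad2, -0.19 for Abat and -0.14 for Aldh5a1 (edgeR adjusted p = 0.997). With the ribosomal protein mean as a covariate they were -0.19, -0.16, -0.17 and -0.11 (adjusted p from 0.813 to 0.834). Both settings were chosen after seeing the data. Without the mixed-sex sham males 9 and 11 and sham females 8 and 10, the values were -0.47, -0.62, -0.47 and -0.46 (adjusted p = 0.395), and without sham male 1, which held neighbouring tissue, -0.40, -0.43, -0.34 and -0.33 (adjusted p = 0.610). All 4 libraries high in ribosomal proteins came from PCB52 animals, so exposure and what sets these libraries apart cannot be told apart.

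**Figure D3:**
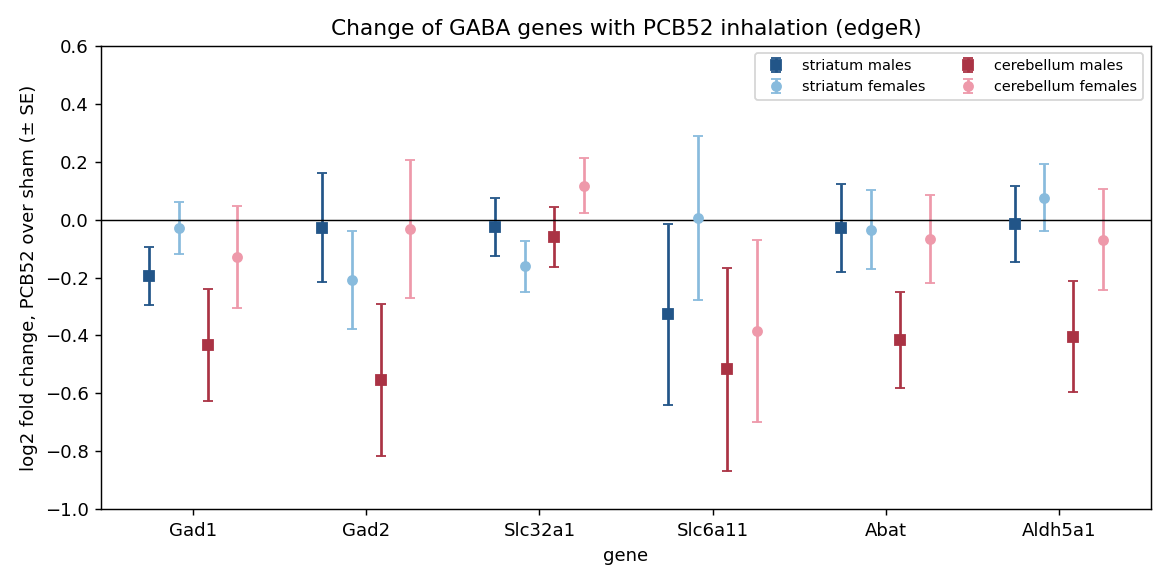
Log2 fold change, PCB52 over sham (vertical axis; bars are ± 1 SE from edgeR), of the 6 GABA genes (horizontal axis) in each region and sex. Cerebellar males lay lowest for 5 of the 6 genes, among them Slc6a11 (-0.52) and Gad2 (-0.55), and striatal females for Slc32a1 (-0.16); no gene passed the test.

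In cerebellar females the same 4 genes lay near 0. Gad1 ran from 280.9 through a median of 419.4 to 519.1 CPM in PCB52 females and from 367.5 through 454.6 to 477.6 CPM in sham females. The exposed group was wider at both ends, with female 20 the lowest and female 14 the highest. The log2 fold changes were -0.13 ± 0.18 for Gad1, -0.03 ± 0.24 for Gad2, -0.07 ± 0.15 for Abat and -0.07 ± 0.17 for Aldh5a1. Without the 4 libraries high in ribosomal proteins, 2 of them from PCB52 females, they were 0.04, 0.20, 0.09 and 0.12 (edgeR adjusted p from 0.646 to 0.873).

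Slc32a1 ran from 231.6 through 237.1 to 262.6 CPM in PCB52 and from 194.2 through 226.2 to 237.7 CPM in sham cerebellar females, a log2 fold change of 0.12 ± 0.09. Slc6a11 ran from 17.1 through 17.8 to 43.7 CPM and from 15.5 through 27.1 to 60.6 CPM, a log2 fold change of -0.38 ± 0.31. The adjusted p was 1.00 for each of the 6 genes (edgeR), and each pair of groups overlapped. Without the mixed-sex sham libraries, among them females 8 and 10, the estimates were -0.10 for Gad1, 0.015 for Gad2, 0.17 for Slc32a1, -0.49 for Slc6a11, -0.01 for Abat and -0.03 for Aldh5a1.

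The difference between the sexes in the cerebellar PCB52 effect was tested directly. It was positive, females minus males, for 6 of 6 genes, from 0.13 ± 0.47 for Slc6a11 to 0.52 ± 0.35 for Gad2 on the log2 scale, and 0 genes, or 0% of all tested, were called (edgeR adjusted p = 0.774 for Gad2; 254 genes, 2.17%, at an unadjusted p under 0.05; limma 0, DESeq2 4). Of all genes 49.2% were positive. Gad1, Gad2, Abat and Aldh5a1 varied together over the cerebellar libraries, so the 6 do not count as 6 independent results. Some of the sham libraries compared held transcripts of both sexes. Without those, the Slc6a11 difference was just below 0. Without the 4 libraries high in ribosomal proteins, it was -0.40. Averaged over both sexes, the cerebellar log2 fold changes were -0.28 ± 0.13 for Gad1, -0.24 ± 0.11 for Abat, -0.45 ± 0.24 for Slc6a11 and 0.03 ± 0.07 for Slc32a1. None of the 6 was called among 0% of all genes (adjusted p = 0.326 for Gad1, Abat and Slc6a11 and 0.807 for Slc32a1; 1727 genes, 14.8%, at an unadjusted p under 0.05; limma 0, DESeq2 21). Of the 8 astrocyte markers 6 had estimates below 0 in that comparison, with a median of -0.15 and 0 called. Their mean log2 CPM ran from 7.41 to 7.87 in PCB52 and from 7.73 to 7.94 in sham males, and from 7.55 to 7.93 and 7.71 to 8.03 in females. With that mean as a covariate, the log2 fold change was 0.05 for Slc6a11 and 0.01 for Abat over both sexes, and -0.01 for Slc6a11, -0.11 for Abat and -0.06 for Aldh5a1 in males. The same mean also varied with Gad1 (r = 0.67) and Gad2 (r = 0.70) between cerebellar libraries, so this fit does not isolate astrocyte content. The part of astrocyte content itself was not tested.

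In the striatum of males, Gad1 showed the clearest ordering of libraries. It stood at 379.8, 406.3, 453.9, 378.3, 352.3 and 406.4 CPM in PCB52 males 13, 15, 17, 19, 21 and 23, and at 406.6, 454.1, 483.7 and 465.2 CPM in sham males 1, 3, 9 and 11. Of the 6 PCB52 males 5 lay below every sham male (male 23 narrowly, at 406.4 against 406.6 CPM), and male 17 lay within the sham range. Gad1 was singled out of the 6 genes for this ordering. How many of all genes have such an ordering against 4 sham males was not counted. The log2 fold change was -0.19 ± 0.10, with an unadjusted p of 0.0648 and an edgeR adjusted p of 1.00.

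The other 5 genes overlapped more fully in striatal males. The log2 fold change was -0.03 ± 0.19 for Gad2, -0.03 ± 0.10 for Slc32a1, -0.33 ± 0.31 for Slc6a11, -0.03 ± 0.15 for Abat and -0.01 ± 0.13 for Aldh5a1. Slc6a11 and Abat were lowest in sham male 9, at 42.7 and 147.8 CPM, while its Gad1 value, 483.7 CPM, was the highest of the group. Without the mixed-sex sham male 3, Gad1 was -0.19, Slc32a1 0.04 and Abat 0.0027, and without PCB52 male 19, which held neighbouring tissue, Gad1 was -0.18 and Slc6a11 -0.26.

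In striatal females Gad1 ran from 355.6 through a median of 415.6 to 532.5 CPM in PCB52 and from 395.7 through 441.4 to 509.4 CPM in sham animals. Gad2 ran from 126.2 through 189.6 to 281.2 CPM and from 134.2 through 239.2 to 290.4 CPM. Slc32a1 ran from 289.9 through 379.7 to 429.3 CPM and from 371.7 through 413.0 to 472.8 CPM. The groups overlapped for each gene, with PCB52 female medians below the sham medians. The log2 fold changes were -0.03 ± 0.09, -0.21 ± 0.17 and -0.16 ± 0.09, and for Slc6a11, Abat and Aldh5a1 they were 0.01 ± 0.28, -0.03 ± 0.14 and 0.08 ± 0.12. The lowest adjusted p was 0.401, for Slc32a1 (edgeR). Without the libraries holding neighbouring tissue, among them PCB52 females 14, 20 and 24 and sham female 12, the estimates were -0.44 ± 0.16 for Gad2, -0.07 ± 0.10 for Slc32a1 and -0.63 ± 0.33 for Slc6a11 (adjusted p = 0.752, 0.985 and 0.863). Leaving out PCB52 female 22 as well, a setting chosen after seeing the data, they were -0.42 ± 0.19, -0.02 ± 0.12 and -0.71 ± 0.39 (edgeR adjusted p = 0.919, 0.999 and 0.944). With the ribosomal protein mean as a covariate, also chosen after seeing the data, Gad2 was -0.50 ± 0.11, Abat -0.25 ± 0.09 and Slc6a11 -0.19 (edgeR adjusted p = 0.122 for Gad2 and 0.340 for Abat).

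Averaged over both sexes, the striatal log2 fold changes ran from -0.16 ± 0.21 for Slc6a11 to 0.03 ± 0.09 for Aldh5a1, with 0 of 6 genes and 0% of all genes called (704, or 5.8%, at an unadjusted p under 0.05; limma 0, DESeq2 0). The sexes did not differ detectably in the striatal PCB52 effect, where differences ran from -0.18 ± 0.25 for Gad2 to 0.33 ± 0.42 for Slc6a11 and 0% of genes were called (471, or 3.88%, at an unadjusted p under 0.05; limma 0, DESeq2 0). The effect also did not differ detectably between the regions, averaged over both sexes. That difference, striatum minus cerebellum, ran from -0.14 ± 0.10 for Slc32a1 to 0.28 ± 0.33 for Slc6a11, and 0% of genes were called (2278, or 18.3%, at an unadjusted p under 0.05; limma 0, DESeq2 3). In sham animals, females minus males ran from -0.14 ± 0.31 for Slc6a11 to 0.21 ± 0.19 for Gad2 in the striatum. In the cerebellum it ran from -0.14 ± 0.10 for Slc32a1 to 0.35 ± 0.33 for Slc6a11. None of the 6 was called by sex, against 0.0329% of striatal and 0% of cerebellar genes (2.55% and 1.05% at an unadjusted p under 0.05, limma 5 and 0 genes). In the cerebellum, 4 of the 11 sham libraries held transcripts of both sexes. Of 3 sex transcripts, 2 were called between the sham sexes in the striatum and 0 in the cerebellum. The cerebellar test missed even these, so it cannot decide whether the 6 genes differ by sex there.

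Libraries of one group differed from each other, and in the cerebellum the enzyme genes varied together. Each library's log2 CPM was set against the mean of its own group, which removes treatment and sex, and deviations were correlated over the 22 libraries of a region. All values of a library share its scaling factor and its RNA. Where the 2 most extreme libraries were left out, they were those farthest from the median of only the first variable of the pair. That variable was the list mean, or the gene that comes first in the order Gad1, Gad2, Slc32a1, Slc6a11, Abat and Aldh5a1. The cerebellar genes concerned were Gad1, Gad2, Abat and Aldh5a1. Their 6 pairs had Pearson r from 0.90 to 0.94 and Spearman rho from 0.87 to 0.93, and r from 0.86 to 0.92 without the 2 most extreme libraries (permutation p = 1e-05, the smallest that 100000 permutations can give; adjusted p = 4.3e-05 over 30 pairs).

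Slc32a1 and Slc6a11 were less closely related to that block. Slc32a1 had r = 0.18 with Gad2 (rho = -0.04, adjusted permutation p = 0.51) and r = 0.25 with Aldh5a1 (rho = 0.10, adjusted p = 0.4). With Gad1 its r was 0.50 (rho = 0.22, adjusted p = 0.046), against 0.20 without the 2 most extreme libraries, so that the relation rests on them. Slc6a11 had r = 0.20 with Gad1 (rho = 0.22, adjusted p = 0.47), 0.28 with Abat (rho = 0.38, adjusted p = 0.34) and 0.27 with Aldh5a1 (rho = 0.40, adjusted p = 0.35), the last pair being 0.57 and 0.64 without the 2 most extreme libraries, and r = -0.03 with Slc32a1 (rho = -0.15, adjusted p = 0.94).

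The block of 4 moved with ribosomal protein transcripts, in the opposite direction. Against the mean log2 CPM of 74 ribosomal protein genes, cerebellar r was -0.89 for Gad1, -0.93 for Gad2, -0.92 for Abat and -0.97 for Aldh5a1 (rho from -0.95 to -0.91; without the 2 most extreme libraries r from -0.96 to -0.82; adjusted permutation p = 0.00011 over 168 relations). For Slc32a1 it was -0.25 and for Slc6a11 -0.14. Ribosomal protein transcripts took 1.69% to 6.93% of the counts of a cerebellar library. Relations of that size were common, since 21.4%, 14.9%, 17.6% and 4.46% of 8941 cerebellar genes had an r as low as that of Gad1, Gad2, Abat and Aldh5a1. The part of RNA quality in these relations was not tested.

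**Figure D4:**
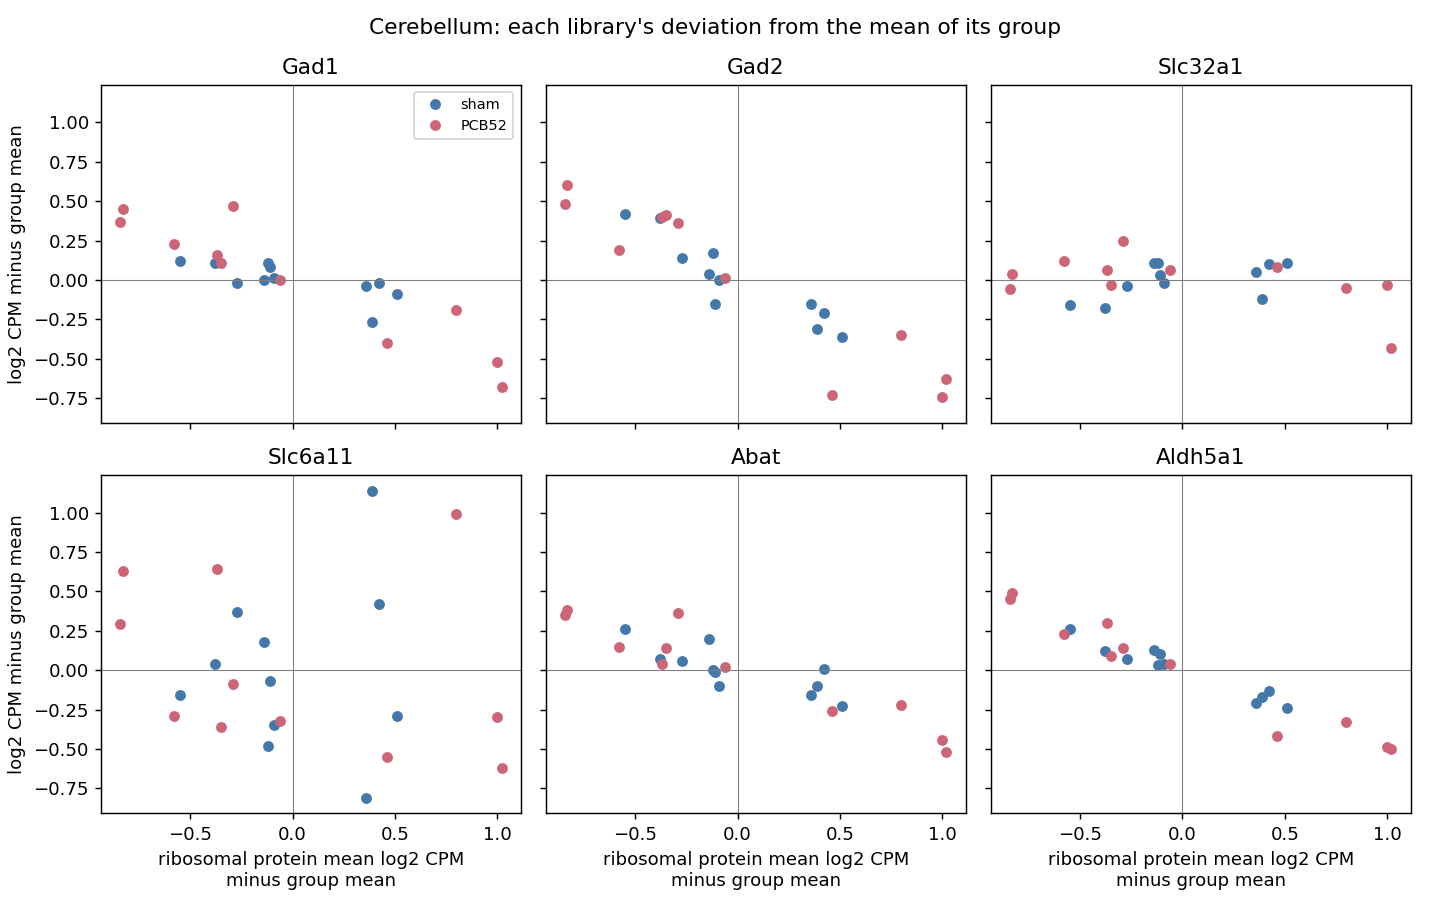
Deviation of each cerebellar library's log2 CPM from the mean of its group for the 6 GABA genes (vertical axes) against the same deviation of the mean of 74 ribosomal protein genes (horizontal axes); points are the 22 libraries, coloured by treatment. Gad1, Gad2, Abat and Aldh5a1 slope down (r from -0.97 to -0.89), while Slc32a1 (r = -0.25) and Slc6a11 (r = -0.14) scatter.

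Cell type markers moved with the same 4 genes. The mean of inhibitory interneuron markers had r = 0.87, 0.91, 0.90 and 0.92 with Gad1, Gad2, Abat and Aldh5a1, and that of granule cell markers, which belong to glutamatergic neurons, had r = 0.84, 0.89, 0.87 and 0.92 (rho from 0.85 to 0.94, r from 0.83 to 0.91 without the 2 most extreme libraries, adjusted permutation p = 0.00011). Purkinje markers went the other way, with r = -0.57 for Gad1, -0.78 for Gad2, -0.71 for Abat and -0.80 for Aldh5a1 (rho from -0.83 to -0.66, adjusted permutation p from 0.00011 to 0.023). Astrocyte markers went with them at r = 0.67, 0.70, 0.77 and 0.80 (rho from 0.52 to 0.69, r from 0.51 to 0.71 without the 2 most extreme libraries, adjusted permutation p from 0.0002 to 0.0028). Bergmann glia markers went against them at r = -0.53, -0.68, -0.58 and -0.66 (rho from -0.71 to -0.55, adjusted permutation p from 0.0033 to 0.043). The mean of 5 inhibitory interneuron markers ran from 3.93 to 4.90 in PCB52 and from 4.68 to 5.32 in sham cerebellar males on the log2 CPM scale. Its part in the lower enzyme values of those males was not tested.

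In the striatum the split differed in part. Slc32a1 was apart from the enzymes there too. Its r was 0.29 with Gad1, 0.09 with Gad2, 0.02 with Abat and -0.22 with Aldh5a1 (rho = 0.22, 0.07, 0.02 and -0.35, adjusted permutation p from 0.33 to 0.94). Abat and Aldh5a1 had r = 0.85 (rho = 0.66), Gad2 had r = 0.71 with Abat and 0.78 with Aldh5a1 (rho = 0.67 and 0.58), and Gad1 had r = 0.63 with Gad2 (rho = 0.55), with adjusted permutation p from 4.3e-05 to 0.0048. Without the 2 most extreme libraries these were 0.71, 0.44, 0.54 and 0.49. Gad1 had r = 0.24 with Abat (rho = 0.32, adjusted permutation p = 0.4) and 0.35 with Aldh5a1 (rho = 0.27, adjusted permutation p = 0.2). Slc6a11 had r = 0.58 with Abat (rho = 0.46, 0.71 without the 2 most extreme libraries, adjusted permutation p = 0.014) and 0.47 with Aldh5a1 (rho = 0.47, 0.57 without them, adjusted permutation p = 0.066). Against ribosomal protein transcripts, which took 1.76% to 4.27% of striatal counts, r was -0.82 for Gad2, -0.82 for Abat and -0.81 for Aldh5a1 (rho = -0.65, -0.68 and -0.58; -0.63, -0.64 and -0.59 without the 2 most extreme; adjusted permutation p from 0.00011 to 0.0002). Gad1 had r = -0.42 (rho = -0.34, adjusted permutation p = 0.18), and Slc32a1 had r = 0.06. Of 9214 striatal genes, 7.76%, 7.64% and 8.43% had an r as low as that of Gad2, Abat and Aldh5a1. For Gad1 the share was 32.4%.

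Striatal Slc32a1 varied with projection neuron markers, with r = 0.76 (rho = 0.78, 0.75 without the 2 most extreme libraries, adjusted permutation p = 0.00034). Slc6a11 went against the same markers (r = -0.68, rho = -0.60, adjusted permutation p = 0.004) and with markers of thalamic, septal or hypothalamic neurons (r = 0.77, rho = 0.63, adjusted permutation p = 0.00056), microglia (r = 0.73, rho = 0.73, adjusted permutation p = 0.0013) and astrocytes (r = 0.69, rho = 0.66, adjusted permutation p = 0.0018). The striatal astrocyte markers also went with Abat (r = 0.65, rho = 0.50, 0.31 without the 2 most extreme libraries, adjusted permutation p = 0.0046) and Aldh5a1 (r = 0.68, rho = 0.70, 0.50 without them, adjusted permutation p = 0.0022). In the cerebellum Slc6a11 also went with the thalamic, septal or hypothalamic list (r = 0.73, rho = 0.71, adjusted permutation p = 0.00069). It also went there with astrocyte markers (r = 0.63, rho = 0.71, adjusted permutation p = 0.0084) and oligodendrocyte markers (r = 0.62, rho = 0.66, adjusted permutation p = 0.012). Cerebellar Slc32a1 had r from -0.30 to 0.31 over the marker lists (lowest adjusted permutation p = 0.36). The part of cell content in the levels of the transporters was not tested. Striatal projection neuron markers ranged from 8.43 to 9.69 in mean log2 CPM over the libraries.

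The levels of one animal's regions were unrelated at this sample size. Over 21 animals, the r between the striatal and the cerebellar deviation of the same gene ran from -0.04 for Gad1 to 0.15 for Aldh5a1, with rho of -0.26 and 0.17 (adjusted permutation p = 1 for each of 6).

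The genes whose deviations were most like those of each GABA gene were ranked over 22 libraries, among 9253 striatal and 8983 cerebellar genes of at least 10 CPM. In the cerebellum the leading gene was G3bp2 for Gad1 (r = 0.97), Rabgap1 for Gad2 (0.98), Clcn6 for Abat (0.97) and Dpy19l3 for Aldh5a1 (0.99), against Bcar1 for Slc32a1 (0.91) and Kifc3 for Slc6a11 (0.82). In the striatum it was Slc35f1 for Gad1 (r = 0.78), Dlat for Gad2 (0.96), Lingo3 for Slc32a1 (0.87), Camk2g for Slc6a11 (0.86), Fam168a for Abat (0.94) and Spag9 for Aldh5a1 (0.96). Followers of Slc6a11 included Grik4 (0.85) in the striatum and the glycine transporter gene Slc6a9 (0.78) in the cerebellum. No other of the 6 GABA genes was among the first 3 of any of them.

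Other genes of the pathway were followed through a list of 37, of which 36 were in the tables: glutamate supply, the pyridoxal phosphate cofactor of the decarboxylases, the polyamine route to GABA, the fate of succinic semialdehyde, GABA-B receptors and chloride transport, further transporters and lineage factors. Between the sham regions 34 could be tested, and 15 were called higher and 12 lower in the striatum, a median log2 fold change of 0.07, beside 34.3% and 35.5% of all genes. The 6 of lowest p, which are described next, were all higher. The forebrain lineage factors Dlx5, Lhx6 and Dlx1 had 35.7 ± 3.70, 19.9 ± 3.48 and 24.6 ± 8.07 CPM in the sham striatum and means of at most 0.162 CPM in the sham cerebellum. Glud1, the glutamate dehydrogenase gene, had 581.9 ± 27.1 and 310.2 ± 34.6 CPM, and Maob, a monoamine oxidase of the polyamine route, 107.1 ± 12.7 and 51.99 ± 6.48 CPM. Adhfe1, whose enzyme oxidises gamma-hydroxybutyrate to succinic semialdehyde, had 70.6 ± 8.39 and 4.92 ± 3.23 CPM, a log2 fold change of 3.91 ± 0.24. Among the 12 lower, and chosen after their values were seen, were the GABA-B receptor subunit gene Gabbr2 (-1.69 ± 0.18), Slc38a2 (-0.92 ± 0.09) and the mitochondrial aspartate aminotransferase gene Got2 (-0.59 ± 0.06).

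With PCB52, 0 of the pathway genes were called in any comparison, against 0% of all genes. Those of lowest p in cerebellar males were Akr7a2, an aldehyde reductase that acts on succinic semialdehyde, at a log2 fold change of 0.44 ± 0.21, and Pdxk, pyridoxal kinase, at -0.38 ± 0.18 (edgeR adjusted p = 0.313 for both). In cerebellar females they were Glud1 at -0.17 ± 0.08 and the glutamine transporter gene Slc38a3 at -0.13 ± 0.09 (adjusted p = 1.00). In striatal males they were Akr7a2 at -0.27 ± 0.15 and Aldh9a1, of the polyamine route, at -0.18 ± 0.10 (adjusted p = 1.00). In striatal females they were Sucla2, a subunit of succinyl-CoA synthetase, at -0.23 ± 0.08 (adjusted p = 0.305) and Adhfe1 at -0.27 ± 0.11 (adjusted p = 0.332). Over both sexes they were Odc1, ornithine decarboxylase, at 0.27 ± 0.13 and the glutamine transporter gene Slc38a2 at -0.21 ± 0.10 in the cerebellum (adjusted p = 0.326), and Akr7a2 at -0.24 ± 0.10 and Sucla2 at -0.13 ± 0.06 in the striatum (adjusted p = 0.774). Akr7a2 thus had opposite signs in the males of the regions, a difference that was not tested in males alone. Averaged over both sexes, its PCB52 effect in the striatum minus that in the cerebellum was -0.49 ± 0.18 and was not called (edgeR adjusted p = 0.268).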

How the data were processed

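mRNA of striatal and cerebellar punches was sequenced, and the authors deposited whole-number read counts per Entrez gene, 1 table per region, with no normalization. Reads were checked with FastQC and aligned with HISAT2 to rn6, per the submitters' processing notes; for the versions, the counting tool and its strand setting, nothing is given in the sources used here. Symbols were paired with 15230 of 15319 identifiers (99.4%) through RefSeq. Of 47 labelled samples, 44 had a count column; the other 3 (striatum sham males 5 and 7, cerebellum sham male 5) were not analysed here.

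Genes passing filterByExpr (12142 striatal, 11690 cerebellar, 12446 over both, with all 6 members) were fitted in edgeR 4.0.16 (R 4.3.3) by quasi-likelihood with TMM scaling, group means and Benjamini-Hochberg adjustment over all genes at 0.05. CPM are TMM-scaled over all 44 libraries and log2 CPM use a prior count of 2. Intervals are ± 1.96 SE. The fit was tested on simulated data. DESeq2 1.42.0, limma 3.58.1 (voom with quality weights), other filters and scaling, covariates and left-out libraries were the alternatives. Replicates differed beyond counting noise in every group (lowest chi-square per degree of freedom 3.49). Titles give the same animal number in both regions, which pairs them; deviations of paired libraries correlated from -0.41 to 0.52 (median 0.09, 21 pairs). Each sample is taken as 1 animal from its label, and p-values measure the spread between these samples. Counting error limits the lowest values: the fewest reads for a member in 1 library were 60.

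All 6 members are named in every comparison. Of the pathway lists, up to 6 genes of lowest p past the threshold and the 2 of lowest p in each PCB52 comparison are named, and the nearest genes by correlation. The members and lists were chosen with earlier results of these data known.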

Additional observations from a re-analysis of the deposited data

Results flagged for a closer look

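In 56 groups of 4 to 6 libraries (6 genes and the log2 Gad1 to Gad2 ratio in 8 groups), 5 held a value far from the others of its group by Dixon's test; chance flags about 1 in 20 groups. For Slc6a11, 3 libraries were high: striatum sham female 4 at 151.5 CPM (next 87.8), cerebellum sham female 12 at 60.6 CPM (next 31.1) and cerebellum PCB52 female 16 at 43.7 CPM (next 26.8). Abat was low in striatum sham female 12, at 136.6 CPM (next 210.3), a library that also held transcripts of neighbouring tissue and had the highest ribosomal protein mean of the striatum, 8.99. The log2 Gad1 to Gad2 ratio was low in striatum PCB52 male 21, at 0.79 (next 1.03).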

How the results depend on the processing

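The alternatives kept the number of members called in every comparison (5 between regions, 0 elsewhere). Fitting the animal as a replicate block called 8433 genes and 5 members between regions, and it changed no other call. The Gad1 to Gad2 ratio between regions was -1.69 with no replicate block, and without the libraries holding transcripts of both sexes it was -1.70 with p = 0.0625, the smallest that 5 pairs allow in an exact permutation test. DESeq2 called 1 gene in striatal males, 23 in striatal females, 1 in cerebellar males, 9 in cerebellar females, 21 over both cerebellar sexes, 4 for the cerebellar sex difference in effect and 3 for the region difference. Between sham sexes, fitting only the groups compared called 2 striatal genes, leaving out the mixed-sex libraries called 4 cerebellar genes, and leave-one-out fits called 0 to 2 (2 without sham female 8).

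These log2 estimates changed sign, and the cause was not tested. With astrocyte markers as a covariate, cerebellar female Abat was 0.13, Aldh5a1 0.16 and Slc6a11 0.11, cerebellar both-sex Abat 0.0097 and Slc6a11 0.051 (from -0.45), striatal male Abat 0.0095 and Aldh5a1 0.0014, striatal female Slc6a11 -0.087 and the sham sex difference of striatal Slc6a11 0.046. With ribosomal proteins as a covariate, striatal male Abat was 0.0039 and Aldh5a1 0.0043, striatal female Aldh5a1 -0.10 and Slc6a11 -0.19, striatal both-sex Aldh5a1 -0.048 and cerebellar female Gad2 0.035. With Purkinje markers cerebellar female Gad2 was 0.030. Without the 4 libraries high in ribosomal proteins, cerebellar female Gad1 was 0.037, Gad2 0.20, Abat 0.090 and Aldh5a1 0.12, cerebellar male Slc32a1 0.043 and the cerebellar sex difference in the Slc6a11 effect -0.40. Without libraries with neighbouring tissue, striatal female Slc6a11 was -0.63 and Aldh5a1 -0.054, striatal both-sex Aldh5a1 -0.032 and the striatal sex difference in the Slc6a11 effect -0.36; leaving out striatum PCB52 female 22 as well, a setting added after seeing the data, they were -0.71, -0.072, -0.042 and -0.45, and the region difference in the Slc6a11 effect was -0.027. Without mixed-sex libraries, striatal male Abat was 0.0027 and Slc32a1 0.037, cerebellar female Gad2 0.015 and the cerebellar sex difference in the Slc6a11 effect -0.0025. With limma, cerebellar female Gad2 was 0.046, cerebellar male Slc32a1 0.049, striatal female Slc6a11 -0.0043 and the cerebellar sex difference in the Slc6a11 effect -0.0062. Leaving out 1 library at a time, signs changed for cerebellar female Abat (-0.15 to 0.012), Aldh5a1 (-0.17 to 0.019) and Gad2 (-0.14 to 0.087), cerebellar male Slc32a1 (-0.12 to 0.034), both-sex Slc32a1 (-0.0033 to 0.075), the cerebellar sex difference in the Slc6a11 effect (-0.12 to 0.45), striatal female Abat (-0.14 to 0.037), Aldh5a1 (-0.017 to 0.14), Gad1 (-0.096 to 0.023) and Slc6a11 (-0.24 to 0.27), striatal male Abat (-0.18 to 0.046), Aldh5a1 (-0.089 to 0.076), Gad2 (-0.060 to 0.043) and Slc32a1 (-0.069 to 0.037), and both-sex Aldh5a1 (-0.016 to 0.076). The fewest reads of a member in 1 library were 60, for Slc6a11.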
